A study of Mus musculus with 8 samples.

Results

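Id1, Id2 and Id3 are small nuclear proteins of the inhibitor of DNA binding family, and their ratios on each of 8 arrays that compare the mouse embryonic stem (ES) cell lines HM-1 and R1 are described here. The members were taken as every probe annotated to Id1, Id2 or Id3, which gave 3 genes and 4 probes out of 9930 named genes and 20355 probes. Id1 and Id2 had 1 probe each and Id3 had 2. The genes were chosen by their ratios on these same arrays, with Id1 as the leading gene, so their values are given as a description without a test.

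Each array was hybridised with cDNA of both lines, HM-1 in one dye and R1 in the other, and both lines had the same treatment on an array. Cells were untreated on 4 arrays and had been given nocodazole, which takes microtubules apart and stops cells in mitosis, on the other 4. Cy3 was the label of HM-1 on 3 arrays, namely replicates 3 and 4 of the untreated cells and replicate 4 of the treated ones. On the other 5 arrays HM-1 carried Cy5. The labels give no dose or time for nocodazole and no culture conditions, genotype or passage of the lines, and do not say whether replicates were separate cultures, so a p-value here measures the spread between arrays, which may be technical. Treated and untreated cells never shared an array. What differs between the conditions is thus how the lines relate to each other, and an effect of the drug within either line was not measured.

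Id proteins hold a helix-loop-helix domain but lack the basic region that contacts DNA. They pair with E proteins such as those of Tcf3, Tcf4 and Tcf12 and keep them from binding DNA with lineage factors. Bone morphogenetic proteins (BMPs) act through serine/threonine kinase receptors that phosphorylate Smad1, Smad5 and Smad9, which enter the nucleus with Smad4 and switch on the Id genes. In mouse ES cells this branch is known for holding back neural differentiation, beside leukaemia inhibitory factor (LIF) acting through Stat3.

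The arrays gave between 17759 and 19342 log2 ratios each, and each array was centred on its median. Standard deviations were 0.784 to 0.909 on 7 arrays and 1.284 on nocodazole replicate 3. The labels do not say which line is the numerator, or whether the sign was already turned on the arrays with HM-1 in Cy3. Ratios coded as 100000, left out here, were positive on arrays with HM-1 in Cy5 and negative on arrays with HM-1 in Cy3. As the log2 of 100000 is positive, the negative sign is what a turn before deposit would give. Values turned on the Cy3 arrays, given below, would then undo that turn. Over 11681 features with a value on all 8 arrays, Pearson's r lay between -0.01 and 0.23 for pairs of arrays with the same dye label and between -0.17 and 0.02 for pairs with opposite labels. Features are not independent replicates. The design text speaks of more swapped arrays than the labels show (50% against 37.5%), so the dye label of an array may be wrong. Nocodazole replicate 3 with the opposite dye was among the alternatives run. Nocodazole replicate 1, opposite in sign to the other nocodazole arrays for Id1 and further genes named below, was left out in another. An alternative with replicate 1 reversed was not run. Values below keep the deposited sign, values turned on the Cy3 arrays follow as a second reading, and neither line is called higher. A ratio gives no level, so the presence of each gene and the ES identity of the cells could not be checked from these values. Pou5f1, which defines ES cells, had a probe with values on too few arrays. Fewer cells of a type and less RNA per cell cannot be told apart in such ratios.

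The stretches before the start of Id2 and Id3 are shown as the DNA next to the genes, and SMAD sites farther away would not be seen. The table of promoters, from RefSeq on build GRCm38.p6, held 3 of the 4 Id genes, and Id1 was the missing entry. Each line gives 250 bases up to the start of the gene, 5′ to 3′ on the gene's strand. Capitals mark matches on either strand to GGCGCC and GTCT, short elements that SMAD proteins bind, and to GGGCGG, the GC box.
Id2: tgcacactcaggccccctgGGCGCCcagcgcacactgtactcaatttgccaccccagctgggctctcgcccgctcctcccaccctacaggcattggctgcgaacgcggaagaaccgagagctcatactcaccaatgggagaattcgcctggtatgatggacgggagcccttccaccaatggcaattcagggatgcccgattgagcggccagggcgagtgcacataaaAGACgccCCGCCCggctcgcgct
Id3: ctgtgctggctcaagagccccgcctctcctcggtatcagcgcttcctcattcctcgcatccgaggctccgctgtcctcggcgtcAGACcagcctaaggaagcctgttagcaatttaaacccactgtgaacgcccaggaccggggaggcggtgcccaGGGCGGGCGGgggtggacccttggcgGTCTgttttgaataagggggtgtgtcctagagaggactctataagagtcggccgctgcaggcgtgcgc
Id2 lies on the minus strand at chr12:25096093-25096342 and Id3 on the plus strand at chr4:136143572-136143821. GGCGCC, found in 9.6% of 32851 windows of this length, stood once in Id2, 231 bases before the start, and not in the Id3 window. GTCT, found in 82.9% of windows, had 1 match in Id2 and 2 in Id3. GGGCGG, found in 32.7%, had 1 match in Id2 and 2 overlapping ones in Id3. CACGTG, which is 1 form of the E-box bound by helix-loop-helix factors, was in 6.0% of windows and had 0 matches in either gene. Other forms of the E-box were not searched. GC content was 62.8% in both windows against a median of 52.4%. A match of letters is a description of the window and does not show a bound site.

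With the deposited sign, Id1 had even ratios on the untreated arrays and larger ones on the nocodazole arrays. In untreated cells its log2 ratio was -0.28, -0.38, -0.46 and -0.33 on replicates 1 to 4, a mean of -0.36 ± 0.07 (SD, n = 4). All 4 values had one sign, and on the linear scale they spanned 0.73 to 0.822. With nocodazole the ratio was -1.30 on replicate 2, -1.16 on replicate 3 and -1.34 on replicate 4, but 1.32 on replicate 1. Replicate 1 thus had a ratio of about the same size and the opposite sign. The mean with nocodazole was -0.62 ± 1.29 (SD, n = 4), and without replicate 1 it was -1.27 ± 0.09 (SD, n = 3). The 3 arrays other than replicate 1 lay below all 4 untreated arrays, as they did for 247 of 11681 features (2.11%). This order was lost when the Cy3 arrays were turned, where replicate 4 was at 1.34. The linear ratio on these 3 arrays was 0.394 to 0.447 against 2.488 on replicate 1.

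**Figure D1:**
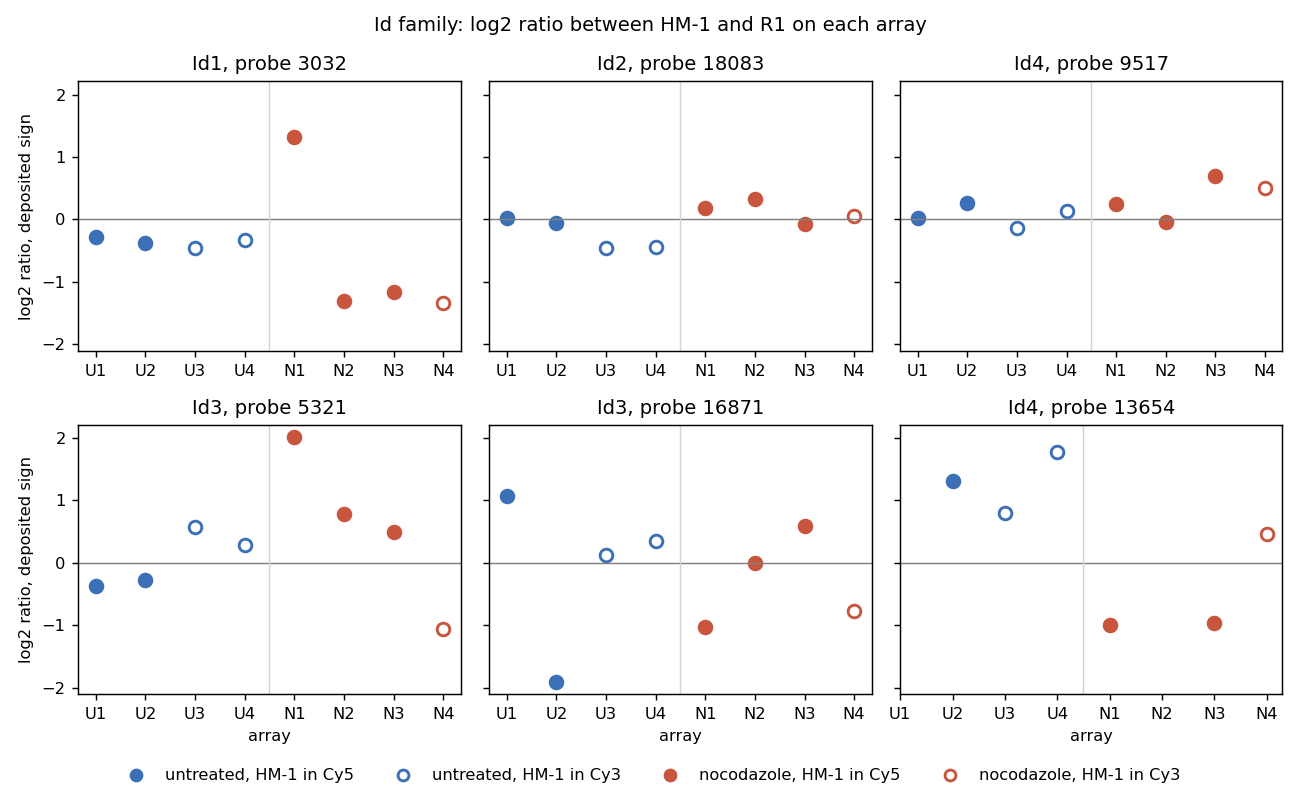
Log2 ratio between HM-1 and R1 for each probe of the Id genes on each untreated (U1 to U4) and nocodazole (N1 to N4) array, centred on the array median, with the deposited sign. Filled points are arrays with HM-1 in Cy5 and open points arrays with HM-1 in Cy3. Id1 sits between -0.46 and -0.28 on the untreated arrays and between -1.34 and -1.16 on nocodazole replicates 2, 3 and 4, with replicate 1 at 1.32.

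Since replicate spread differs between genes, the evenness with the deposited sign of Id1 was set against that of all probes. Its untreated SD of 0.07 compared with a median of 0.29 over 15115 probes, and 3.4% of probes had a smaller SD. Over nocodazole replicates 2, 3 and 4 its SD of 0.09 compared with a median of 0.28 over 16490 probes, with 14.6% of probes smaller. Turned, the untreated SD was 0.42 for Id1, 0.27 for Id2, 0.14 for Id3 probe 5321 and 0.17 for Id4 probe 9517, so Id1 was then not the most even. Without centring the untreated arrays on their medians, the SD of Id1 was 0.20. On its array Id1 stood at the 27.7, 18.6 and 20.3 percentile of all ratios in untreated replicates 1, 2 and 4, and lower in replicate 3. With nocodazole it stood at the 97.6 percentile on replicate 1 and at the 4.0, 16.0 and 2.2 percentiles on replicates 2, 3 and 4. The 16.0 belongs to replicate 3, the array with the widest spread.

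The sign pattern of Id1 was shared by part of the array. Negative ratios on all 4 untreated arrays were found for 861 of 11681 features (7.37%). Negative ratios on 7 arrays with a positive one on nocodazole replicate 1 were found for 304 features (2.6%). With the Cy3 arrays turned, where Id1 shows neither pattern, the counts were 1089 (9.32%) and 79 (0.676%). These shares stand beside Id1 as background, since the choice of Id1 rested on the same ratios.

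The size of the ratio, taken without its sign, does not depend on the direction of an array. For Id1 it was 0.28 to 0.46 untreated and 1.16 to 1.34 with nocodazole, so the groups did not overlap, replicate 1 included. Of 11681 features, 152 (1.3%) had all 4 nocodazole sizes above all 4 untreated ones. After each array was divided by its median absolute deviation, the sizes of Id1 were 0.27 to 0.42 and 0.87 to 1.68, and 230 features (1.97%) showed the same order. The corresponding ranges overlapped for Id2, at 0.03 to 0.45 untreated and 0.05 to 0.32 with nocodazole. They also overlapped for the mean of the Id3 probes, at 0.32 to 1.09 and 0.39 to 0.91.

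The reading with the Cy3 arrays turned left Id1 without a common sign in either condition. Its untreated values then ran from -0.38 to 0.46 with a mean of 0.03 ± 0.42 (SD, n = 4). With nocodazole the turned mean was 0.05 ± 1.48 (SD, n = 4), and without replicate 1 it was -0.37 ± 1.49 (SD, n = 3). The 5 arrays with HM-1 in Cy5 run the same way under either reading. Among them Id1 was -0.28 and -0.38 untreated, and 1.32, -1.30 and -1.16 with nocodazole. By these labels the sign of nocodazole replicate 1 is opposite to that of replicates 2 and 3 under both readings. Were HM-1 in Cy3 on replicate 3, its turned value would be 1.16, the sign of replicate 1.

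**Figure D2:**
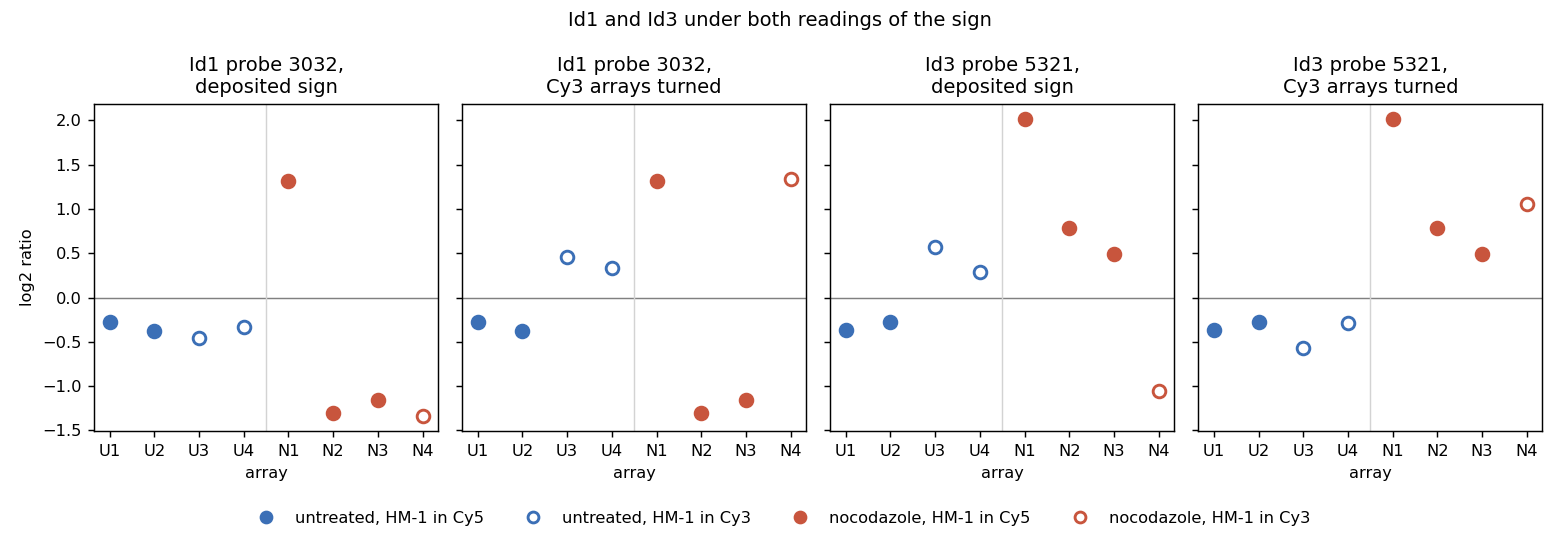
Log2 ratio of Id1 and of Id3 probe 5321 on untreated (U1 to U4) and nocodazole (N1 to N4) arrays, with the deposited sign and with the Cy3 arrays turned. Filled points are arrays with HM-1 in Cy5, open points with HM-1 in Cy3. Untreated Id1 keeps one sign as deposited (-0.46 to -0.28) and not when turned (-0.38 to 0.46), and Id3 probe 5321 keeps one when turned (-0.57 to -0.28).

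Id2 stayed closer to equal ratios than Id1. Its log2 ratio untreated was 0.03, -0.06, -0.45 and -0.44 on replicates 1 to 4, a mean of -0.23 ± 0.25 (SD, n = 4). With nocodazole it was 0.19, 0.32, -0.08 and 0.05, a mean of 0.12 ± 0.17 (SD, n = 4). Both negative values beyond -0.4 came from the untreated arrays with HM-1 in Cy3, and the groups overlapped between -0.08 and 0.03. Turned, the means were 0.22 ± 0.27 and 0.10 ± 0.19 (SD, n = 4 each), so the untreated mean changed sign with the reading. Nocodazole replicate 1, where Id1 was opposite to its group, had an Id2 ratio of 0.19 inside the range of the other 3. The untreated SD of Id2 exceeded that of 42.9% of probes.

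Id3 was measured by 2 probes that did not follow each other. Probe 5321 gave -0.37, -0.28, 0.57 and 0.29 untreated and 2.02, 0.79, 0.49 and -1.06 with nocodazole. Within each condition its sign followed the dye label of HM-1, and replicate 1 with nocodazole, at the 98.9 percentile of that array, was the highest. Probe 16871 gave 1.07, -1.91, 0.12 and 0.35 untreated and -1.02, 0.00, 0.59 and -0.77 with nocodazole. Neither group of arrays had one sign for this probe. Across the 8 arrays, which both probes share, r between them was -0.03. The median r over 986 genes with 2 probes was 0.05, and 43.1% of these genes had a lower r than Id3.

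The mean of the Id3 probes was 0.35, -1.09, 0.34 and 0.32 untreated and 0.50, 0.39, 0.54 and -0.91 with nocodazole. One array of each condition thus stood apart, replicate 2 untreated and replicate 4 with nocodazole. The group means were -0.02 ± 0.72 and 0.13 ± 0.70 (SD, n = 4 each). Leaving out untreated replicate 2 gave 0.34 ± 0.02, and leaving out nocodazole replicate 4 gave 0.48 ± 0.08 (SD, n = 3 each). On the untreated side probe 16871 set the low value, at -1.91 against -0.28 for the other probe. On nocodazole replicate 4 both probes were negative.

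With the deposited sign the values of Id3 probe 5321 overlapped between the conditions, at -0.37 to 0.57 untreated and -1.06 to 2.02 with nocodazole. With the Cy3 arrays turned they did not overlap. Its untreated values were then -0.57 to -0.28, with a mean of -0.38 ± 0.14 (SD, n = 4), and its nocodazole values 0.49 to 2.02, with a mean of 1.09 ± 0.66 (SD, n = 4). Of 11681 features, 61 (0.522%) were negative on all untreated and positive on all nocodazole arrays under that reading. Were HM-1 in Cy3 on nocodazole replicate 3, its value would be -0.49, within the untreated range. Id1 shows one sign untreated with the deposited direction and mixed signs when turned, while probe 5321 shows the reverse. No single reading of the direction gave both probes one sign within the untreated arrays. The turned mean of both Id3 probes was -0.35 ± 0.59 untreated and 0.59 ± 0.23 with nocodazole (SD, n = 4 each).

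Id4, the remaining family member, was compared with the 3 genes. Its mean over 2 probes was 0.02, 0.79, 0.33 and 0.96 untreated and -0.38, -0.04, -0.13 and 0.49 with nocodazole. Probe 13654, with values on 6 arrays, supplied the larger untreated ratios, from 0.80 to 1.78, against -0.14 to 0.27 for probe 9517. Of its 6 values, 2 were ratios of small whole numbers (up to 10, within 0.0015 on the log2 scale), as were up to 19.4% of all values of an array. Such ratios can arise from very dim spots. None of the 8 values of Id1, of Id2 or of either Id3 probe was of that kind (0 of 8 each).

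In order of their untreated mean with the deposited sign, the genes ran from Id1 (-0.36) over Id2 (-0.23) and Id3 (-0.02) to Id4 (0.52 ± 0.43, SD, n = 4). Neighbours in that order were nearer to each other than the larger of their SDs in each case (Id1 with Id2, Id2 with Id3, Id3 with Id4). With nocodazole the order was Id1 (-0.62), Id4 (-0.02 ± 0.36), Id2 (0.12) and Id3 (0.13), all within the SD of 1.29 of Id1. Without nocodazole replicate 1, Id1 at -1.27 ± 0.09 (SD, n = 3) stood apart from Id2 at 0.09 ± 0.20 (SD, n = 3) and from Id3 at 0.01 ± 0.80 (SD, n = 3). Turned, the untreated order was Id3 (-0.35), Id4 (-0.12), Id1 (0.03) and Id2 (0.22). Turned and without nocodazole replicate 1, Id1 at -0.37 ± 1.49 did not stand apart from Id2 at 0.06 ± 0.22 or Id3 at 0.62 ± 0.27 (SD, n = 3 each). Across the 8 shared arrays the r of Id1 was 0.02 with Id2, 0.64 with Id3 probe 5321 and -0.26 with probe 16871. Without nocodazole replicate 1 these values were -0.61, 0.00 and 0.06. Neither Id2 nor probe 16871 followed Id1, and the r of probe 5321 rested on nocodazole replicate 1.

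For the rest of the pathway, limma was fitted to 14015 features on all 8 arrays, with a term for the dye label. No feature passed an adjusted p of 0.05 (0% of 14015) in the ratio untreated, the ratio with nocodazole, the mean of both conditions or the difference between them. At an unadjusted p under 0.05, 469 features (3.35%) were positive and 418 (2.98%) negative untreated, and 252 (1.8%) and 156 (1.11%) with nocodazole. For the mean of both conditions the counts were 442 (3.15%) and 340 (2.43%), and for nocodazole minus untreated 229 (1.63%) and 232 (1.66%). The balance of signs depended on the reading. Turned, the counts were 436 (3.11%) positive and 1032 (7.36%) negative untreated, and 249 (1.78%) and 470 (3.35%) with nocodazole. They were 514 (3.67%) and 950 (6.78%) for the mean and 484 (3.45%) and 198 (1.41%) for the difference. Without nocodazole replicate 1 they were 381 (2.96%) and 468 (3.64%) untreated, 271 (2.11%) and 359 (2.79%) with nocodazole, and 385 (2.99%) and 554 (4.31%) for the mean, of 12857 features.

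Of 124 other genes on 10 lists of BMP signalling and neighbouring pathways, Id1, Id2 and Id3 left out, 64 had a probe and 58 were tested, and 0 of them passed the adjusted threshold in any of the comparisons. At the unadjusted one, 3 were positive untreated (5.17%), namely Id4, Smad3 and Lefty1, and 1 with nocodazole (1.72%), Sostdc1. These 4 genes made up the count for the mean of both conditions (6.9%), none was negative in any comparison, and 0 passed for the difference between the conditions. Turned, 1 was positive and 5 (8.62%) were negative untreated, and 2 (3.45%) were negative with nocodazole, Smad1 and Jak1. The median ratio of the 58 genes was 0.10 untreated and 0.00 with nocodazole, against 0.00 and -0.01 for all features.

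The BMP ligands had few measured members, 2 of 12, with medians of 0.05 untreated and 0.19 with nocodazole. Bmp4, which ES cultures use with LIF, had ratios of 0.48, 0.08, -0.15 and -0.25 untreated and 0.27, 0.08, -0.31 and -0.03 with nocodazole. Its values lay on both sides of 0 in each condition. The receptors and co-receptors had 5 of 11 members tested and medians of 0.11 (-0.05 turned, 0.21 without untreated replicate 3) and 0.09. Among them Rgma, a co-receptor that binds BMPs, spanned -0.02 to 0.19 untreated. Bmpr1a, a type I receptor, had values on too few arrays. The list of antagonists outside the cell, most of which bind BMPs before the receptor does, had 5 of 16 tested and medians of 0.24 and -0.05. The first was -0.32 when turned, -0.15 without untreated replicate 3 and 0.03 without replicate 4. Bmp1, a protease on this list and not a BMP-binding antagonist, supplied that median of 0.24 as its own untreated mean.

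The SMADs and co-activators had 5 of 7 tested, with medians of -0.12 (0.13 turned) and -0.13 (0.07 without nocodazole replicate 1). Smad1, a direct carrier of the BMP signal, had -0.43, 0.09, 0.36 and -0.01 untreated and -1.51, -0.51, -0.51 and 1.23 with nocodazole. Nocodazole replicate 1 was its lowest array, where Id1 was highest. Smad5, its close relative, had -0.06, -0.12 and -0.81 on untreated replicates 1, 2 and 3 and -0.03, 0.61, 0.27 and 0.43 with nocodazole. Smad4, the shared partner, had -0.35, 0.25, -0.18 and -0.45 untreated and -1.61, -2.01, -0.10 and -0.03 with nocodazole. Inhibitors inside the cell had 6 of 10 tested and medians of -0.02 and -0.05. One of them, Smad6, which BMP signalling also induces, lay between -0.68 and 0.28 untreated and between -0.29 and 0.02 with nocodazole.

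Other BMP targets, the genes nearest in kind to the Id genes, had 7 of 15 tested and medians of 0.00 untreated and 0.04 with nocodazole. Msx1, a homeobox gene that BMPs induce, had -0.07, -0.07, -0.34 and -0.14 untreated, as Id1 did negative on all 4 arrays. With nocodazole it had -0.17, 0.35, 0.50 and 0.28, so its signs were opposite to those of Id1 on all 4 arrays. Hes1, a repressor that also holds a helix-loop-helix domain, had 0.36, 0.19, -0.08 and 0.06 untreated and 0.26, -0.09, -0.13 and -0.29 with nocodazole. Its order across the arrays was like that of Id1 (r = 0.73, Spearman's rho = 0.93 over 8 arrays), with smaller ratios. Hes1 also answers to Notch.

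The E proteins and other helix-loop-helix factors that Id proteins bind or restrain had 10 of 23 members tested and medians of 0.04 untreated and -0.30 with nocodazole. The first was -0.12 without untreated replicate 1. The second was -0.07 when turned and -0.01 without nocodazole replicate 3, the array of widest spread. Tcf4 lay between -0.13 and 0.37 untreated and between -0.34 and 0.29 with nocodazole. Tcf12 lay between -0.35 and 0.06 untreated and between -0.48 and 0.03 with nocodazole. Tcf3 ranged from -1.64 to 3.08 on 3 untreated arrays and from -3.41 to 0.96 with nocodazole, wider than any Id probe. LIF and STAT3 signalling had 8 of 12 tested and medians of 0.15 and -0.06. In that list Pim1, a kinase gene that Stat3 induces, had the highest r with Id1, 0.82 over 8 arrays. The Nodal, activin and TGF-beta branch, the other SMAD arm, had 10 of 20 tested and medians of 0.25 and 0.09. The first was -0.04 when turned and 0.08 without untreated replicate 3, and the second -0.02 both when turned and without nocodazole replicate 1.

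**Figure D3:**
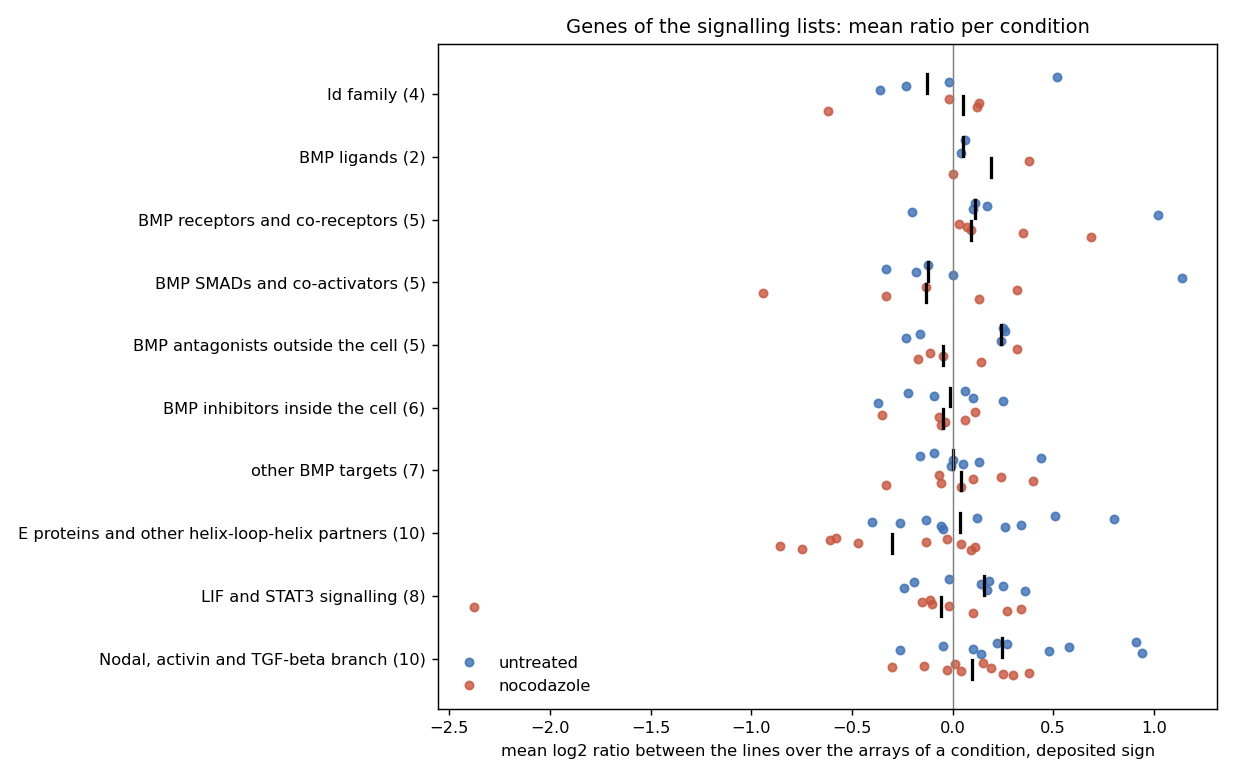
Mean log2 ratio, with the deposited sign, of each tested gene of the 10 signalling lists (rows, tested genes in brackets), untreated in blue and with nocodazole in red. Points are genes and black bars list medians, which lie between -0.12 and 0.25 untreated and between -0.30 and 0.19 with nocodazole.

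Part of the endoderm and fibroblast markers had the signs of Id1 across the arrays. Primitive and parietal endoderm markers, with 14 of 19 tested, had medians of -0.36 untreated and -0.28 with nocodazole, and 10 and 13 of them were negative. Over all features, 7034 and 7199 of 14015 were negative. Without nocodazole replicate 1 the second median was -0.65. Over the 13 markers with a value on all 8 arrays, the median was between -0.59 and -0.16 on the untreated arrays. It was 0.08 on nocodazole replicate 1 and between -0.57 and -0.29 on the other nocodazole arrays, so its sign on each array was that of Id1. Of these 13, 5 had the signs of Id1 on all 8 arrays (Dab2, Sparc, Pth1r, Apoe and Serpinh1), against 2.6% of all features. On the signalling lists Fstl1 and Pim1 had them too, and Neo1 had the opposite sign on all 8. Col4a1, a basement membrane collagen, had the opposite sign on all 8, from 0.07 to 0.21 untreated, -1.28 on nocodazole replicate 1 and 0.11 to 0.65 on the other nocodazole arrays. Gata6, a factor that defines primitive endoderm, was at -0.53 on untreated replicate 1 and between 0.22 and 0.33 on the other untreated arrays. Dab2, an endocytic adaptor of the endoderm, had -0.92, -1.06, -1.21 and -0.94 untreated and 1.27, -0.82, -1.22 and -1.08 with nocodazole. Fibroblast markers, which feeder cells would carry, had 17 of 20 tested and medians of -0.14 and -0.15 (-0.25 without nocodazole replicate 1). Over 12 of them the median was negative on 7 arrays and 0.19 on nocodazole replicate 1, and 3 (Thy1, S100a4 and Thbs1) had the signs of Id1 on all 8 arrays. The part of other cell types in the ratio of Id1 was not tested.

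The remaining marker lists were smaller in number or nearer to 0. Trophectoderm markers had 2 of 11 tested, and Krt8, an epithelial keratin also found in endoderm, had -0.67, -0.70, -1.20 and -1.34 untreated and 1.40, -0.92, -1.28 and -1.16 with nocodazole. Its signs on all 8 arrays were those of Id1, while those of Gata3, the other tested gene, were not, at -0.40, 0.23, 0.02 and 0.36 untreated and -0.45, -0.54, -0.17 and -0.16 with nocodazole. The median of that list was -0.46 untreated and -0.41 with nocodazole. Neuroectoderm markers had 5 of 10 tested and medians of -0.03 and 0.04. Naive pluripotency markers had 10 of 20 tested and medians of 0.19 and 0.01. One of them, Esrrb, lay far from its list median, with 0.25, 0.15, -0.13 and 0.00 untreated. With nocodazole it had 2.21, 2.85 and 1.02 on replicates 2, 3 and 4 and no value on replicate 1. Its limma p for the ratio with nocodazole was 0.000393 unadjusted and 0.999 adjusted. HM-1 was in Cy3 on replicate 4. Among the marker lists, 0 genes passed the adjusted threshold in limma. Turned, the endoderm medians were 0.03 and -0.08 and the fibroblast medians 0.05 and -0.04. Their untreated sign, like that of Id1, was thus negative with the deposited direction alone. As the sign of the coded ratios followed the dye label, turning may undo a step taken before deposit.

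**Figure D4:**
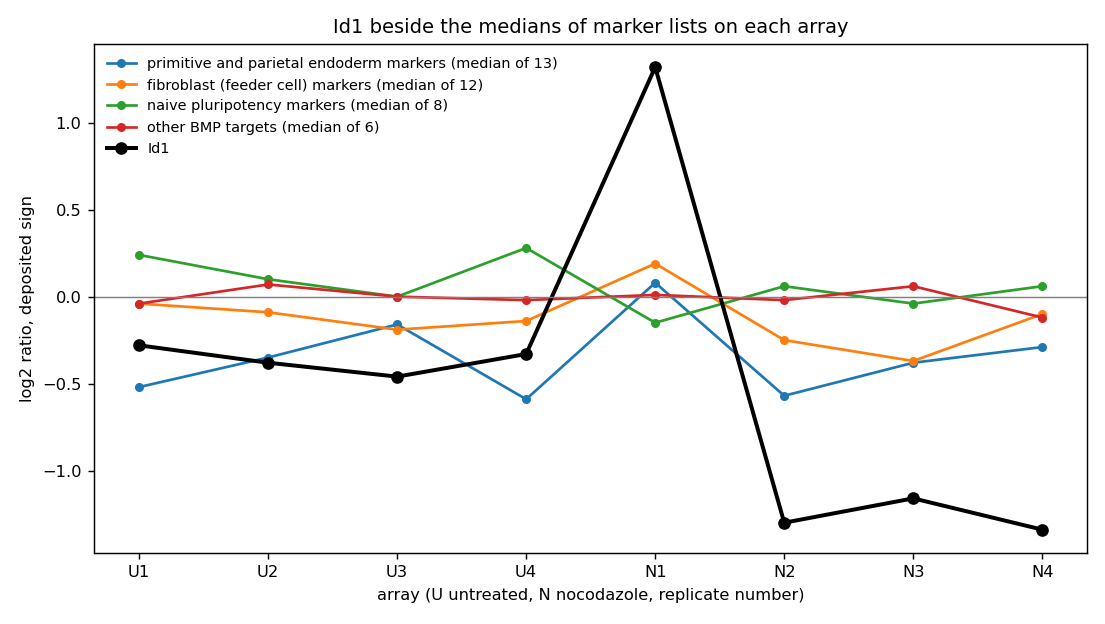
Median log2 ratio of endoderm, fibroblast and naive pluripotency markers and of other BMP targets on each untreated (U1 to U4) and nocodazole (N1 to N4) array, beside the ratio of Id1 in black, with the deposited sign. The lines only guide the eye, and medians are over genes with a value on all 8 arrays. The endoderm median is positive, at 0.08, on nocodazole replicate 1 alone, where Id1 is 1.32.

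The genes most like Id1 were sought by Pearson's r over the 8 arrays among 7487 other named genes with a value on each. The median r was 0.04, and 29 genes had an r over 0.9. The 10 highest were Rnf112 (0.96), Plekha8 (0.96), Ap2m1 (0.95), Sparc (0.94), Mtch1 (0.94), Lasp1 (0.94), Ndrg1 (0.94), Niban2 (0.94), Wsb2 (0.94) and Ckb (0.93). Of these, Sparc, a secreted matrix protein of parietal endoderm, came near Id1 in size as well on the nocodazole arrays. Untreated, Sparc had larger ratios than Id1, which lay between -0.46 and -0.28. The ratios of Sparc were -0.68, -0.88, -0.68 and -0.97 untreated and 1.23, -1.22, -1.12 and -1.25 with nocodazole. Rnf112 had the highest r with smaller ratios, between -0.27 and -0.01 untreated and between -0.47 and 0.39 with nocodazole. The lowest r belonged to Pacc1 (-0.96), Pacrgl (-0.95), Plxdc1 (-0.93), Gclm (-0.93) and Ring1 (-0.92). With the Cy3 arrays turned, the r of the 10 highest was 0.70 for Plekha8 and 0.94 to 0.98 for the others, and 6 of the 10 were also among the 10 highest by the turned r. Of the 5 lowest, Pacrgl was then at -0.59 and Ring1 at -0.54. On the signalling lists 0 genes had an r over 0.9 with Id1.

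Which genes were most like Id1 changed without nocodazole replicate 1, the only array where Id1 was positive. Over the other 7 arrays 14 genes had an r over 0.9, and 1 gene, Plekha8, did so over both 8 and 7 arrays (0.96 and 0.97). The 10 highest over 7 arrays were Plekha8, Abca3, Ptgds, Gpr132, Gpr153, Hnrnpl, Rnf25, Usp36, Fam122c and Uap1l1, and 1 of them was among the 10 highest over 8. The lowest over 7 were Slc11a1 (-0.96), Hectd4 (-0.94), Asic2 (-0.94), Rfxank (-0.92) and Ccdc57 (-0.91). Sparc had an r of 0.89 over these 7 arrays, and 0.84 without the 2 arrays on which Id1 was farthest from its median, nocodazole replicates 1 and 4. By Spearman's rho over 8 arrays, 2 of the 10 highest genes were the same as by r. Plekha8 followed the order of Id1 at a small size, between -0.17 and 0.28 on all arrays. These correlations rest on shared arrays and carry no test.

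**Figure D5:**
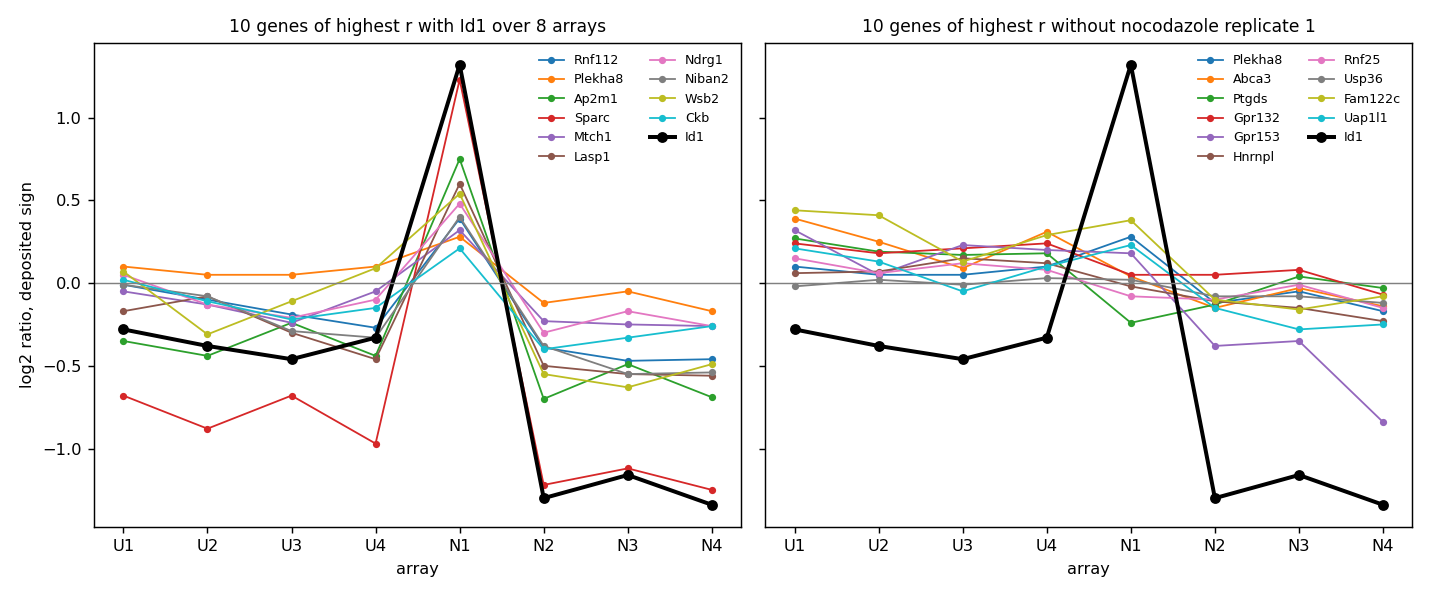
Log2 ratio, with the deposited sign, of Id1 (black) and of the 10 genes of highest Pearson's r to it over 8 arrays (left) and without nocodazole replicate 1 (right), on untreated (U1 to U4) and nocodazole (N1 to N4) arrays. Lines only guide the eye. On the nocodazole arrays Sparc runs close to Id1, at 1.23 on replicate 1 and between -1.25 and -1.12 on the other 3. On the untreated arrays Sparc lies below Id1, between -0.97 and -0.68.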

How the data were processed

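RNA of the lines was measured on 8 cDNA arrays with 2 colours. The deposited table holds 1 log2 ratio per probe and array, a scale read from the values, and its normalization, software and direction are not stated in any source used. Labelling of the reverse-transcribed total RNA was indirect, per the labels' protocols. Those protocols speak of organs and of a reference pool from animals, which the channel labels do not match. Spot intensities were not used, and the number of arrays limits the precision.

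Ratios coded as 100000 (16.6 on the log2 scale, apart from an offset of each array), 74 to 203 per array, were left out. Their sign was positive on arrays with HM-1 in Cy5 and negative on arrays with HM-1 in Cy3. Each array was centred on its median, and probes of 1 gene were averaged. Of the probes, 14030 had 1 symbol in the platform annotation, 6320 had none and 5 had several. Gene IDs of 13994 probes matched the mouse RefSeq table. Features measured on 3 or more arrays per group (14015 of 16255, 8726 of them named) entered limma 3.58.1 with statmod 1.5.0 in R 4.3.3 (lmFit and eBayes, a coefficient per group, a dye term, two-sided p adjusted by Benjamini-Hochberg, threshold 0.05). The procedure was tested on simulated data. No 2 arrays held the same values.

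The members and lists were chosen with earlier results of these data known. The genes named were mainly the Id genes and, from each list, some of the 3 of smallest unadjusted p and certain core pathway genes. Those most and least like Id1 were also named. Some list members outside this rule, such as Col4a1 and Gata6, were named as well. The alternatives were direction, centring, scaling, coded values, probe averaging, dye term, the dye of nocodazole replicate 3, missing values, array weights, a replicate block, each array left out and, added after seeing the data, the Cy5 arrays alone and turned likeness to Id1.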

Additional observations from a re-analysis of the deposited data

Results flagged for a closer look

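Among 118 groups of 4 arrays looked at, 14 held an array far from the other 3, where chance gives about 1 in 20 (5.9). The groups share arrays and hold genes picked from these data, so they are not independent and the counts are no test. Of these, 5 were nocodazole replicate 1 with a value opposite to or above the rest: Id1 at 1.32 (others -1.34 to -1.16), Dab2 at 1.27 (-1.22 to -0.82), Apoe at 0.51 (-0.43 to -0.38), Krt8 at 1.40 (-1.28 to -0.92) and the median of the LIF and STAT3 list at 0.29 (-0.19 to -0.11). On the same array Nedd4l, an inhibitor inside the cell, was at -0.91 (others 0.14 to 0.33).

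The mean of the Id3 probes stood apart on untreated replicate 2, at -1.09 (others 0.32 to 0.35), and on nocodazole replicate 4, at -0.91 (0.39 to 0.54). On that array Smad6 was at -0.29 (0.00 to 0.02). Untreated replicate 4 stood apart for Bmp7, at 0.69 (-0.20 to -0.09), and for Sostdc1, at 0.63 (0.11 to 0.15). Nocodazole replicate 3, the array of widest spread, stood apart for Olig1 at -2.88 (-0.45 to 0.05), Pax6 at 2.35 (-0.11 to 0.12) and Map2 at -1.23 (-0.02 to 0.12).

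With the Cy3 arrays turned, Id3 probe 5321 differed by 1.47 between nocodazole and untreated, with one sign on every untreated array (-0.57 to -0.28) and the other on every nocodazole array (0.49 to 2.02). With the deposited sign the conditions overlapped (-0.37 to 0.57 untreated, -1.06 to 2.02 with nocodazole). The turned difference was not tested, and turning may undo a step taken before deposit.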

How the results depend on the processing

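The Id means moved by less than 1 SD under the alternatives run, except that turning the Cy3 arrays gave 0.03 for untreated Id1 and 0.22 for untreated Id2. Signs also changed, within 1 SD, for Id1 with nocodazole when turned (0.05), for untreated Id3 without replicate 2 (0.34) and for Id3 with nocodazole without replicate 3 (-0.01). Leaving out 1 array gave -0.39 to -0.33 (Id1 untreated), -1.27 to -0.38 (Id1 with nocodazole), -0.31 to -0.16 and 0.05 to 0.19 (Id2), and -0.14 to 0.34 and -0.01 to 0.48 (Id3). The count of features past the adjusted p in limma was 0 under the alternatives, except 1 unnamed probe with nocodazole (adjusted p = 0.0316) among the 11681 features on all 8 arrays, and 1 in nocodazole minus untreated without untreated replicate 1 (adjusted p = 0.0487, leave-one-out range 0 to 1). At an unadjusted p under 0.05 the untreated count was 887 and 1468 when turned. With nocodazole it was 408, against 719 turned, 630 without replicate 1 and 653 without replicate 4. Over both conditions it was 782, against 1464 turned and 493 without nocodazole replicate 2. Untreated and nocodazole arrays of the same number correlated at -0.05 to 0.13 over features, and those of different numbers at -0.13 to 0.14. These ranges overlap, so they cannot tell whether arrays of one number shared more than that number. With the replicate number as a block, 0 features passed the adjusted p and 676 the unadjusted one with nocodazole. The number of arrays and a direction that the labels do not state limit every value, and the brightness behind a ratio is unknown.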
